A study of Mus musculus with 18 samples.

Results

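WT pancreatic acinar cells after 1 day in suspension culture were compared with the same kind of cells on the day of isolation. The members are the 3 WT libraries of day 1 and the 3 WT libraries of day 0, 6 of the 18 libraries in all, taken by the genotype and day in their labels. Both groups are mouse acinar cells of WT mice, which carry xCT, the cystine transporter encoded by Slc7a11. The cells were held in Advanced RPMI after isolation. They differ in the time in suspension, 0 or 1 day, and no drug is labelled for either. The mice go back to an xCT mouse line described earlier, and for these libraries neither their age nor the number of mice behind each is given in the sources used here. The other 12 libraries, of day 4 and of mice without xCT (KO), entered the fit for the spread between libraries. RNA-seq reads were counted per gene for 46603 genes of GRCm38. Of these, 13203 passed the filter on low counts and were tested.

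Acinar cells make and store digestive enzymes, and a small set of enzyme genes supplies most of their messenger RNA. Once taken out of the gland they lose contact with matrix, nerves and blood supply, switch on stress genes and drift toward a duct-like or embryonic state. That drift, called dedifferentiation or acinar-to-ductal metaplasia, is also known from pancreatitis.

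The libraries of day 0 held 12127474 to 14192071 counts, and those of day 1 held 13092204 to 14545420. The 10 most abundant genes accounted for 64.93% to 66.42% of day 0 libraries and for 55.79% to 56.98% of day 1 libraries, and genes with at least 10 counts numbered 9246 to 9829 and 10558 to 10697. The labelled cell type was checked against its defining genes. The 32 listed acinar enzymes took 79.9%, 77.7% and 77.6% of counts in the day 0 libraries and 69.3%, 69.3% and 68.3% in those of day 1. Values are given as CPM, in which counts are set relative to the library total after TMM scaling, a method that holds the typical gene constant between libraries. On that scale the median change over the tested genes was 0.01 in log2 units, and with library totals alone it was 1.0. CPM and log2 fold changes below are therefore relative to the typical gene unless another scale is named. Shares of counts and unscaled CPM are relative to the library total, a scale on which the typical gene itself rose. WT replicate 1 had counts of the Y-linked Ddx3y at both days (6 and 18), and replicates 2 and 3 had Xist and none of Ddx3y. The WT libraries therefore came from more than 1 animal, but which libraries share an animal is not stated, so p-values measure the spread between these libraries, which may be in part technical.

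Most tested genes changed within the first day. At an adjusted p under 0.05 in edgeR's quasi-likelihood test, 3771 genes were higher at day 1 (28.6% of those tested) and 3550 were lower (26.9%). Scaled by library totals, 8168 were higher and 943 lower. A change of at least 4-fold was seen in 766 genes that were higher (5.8%) and 796 that were lower (6.03%). The libraries of the 2 days did not overlap in 3921 genes in the upward direction (29.7%) and 3569 in the downward direction (27%). Of the 766 genes, 384 averaged 5 CPM or more, against 192 of the 796, so the large falls were mostly in weakly expressed genes. With the 6 WT libraries fitted alone, 578 genes were higher and 413 lower by at least 4-fold.

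**Figure D1:**
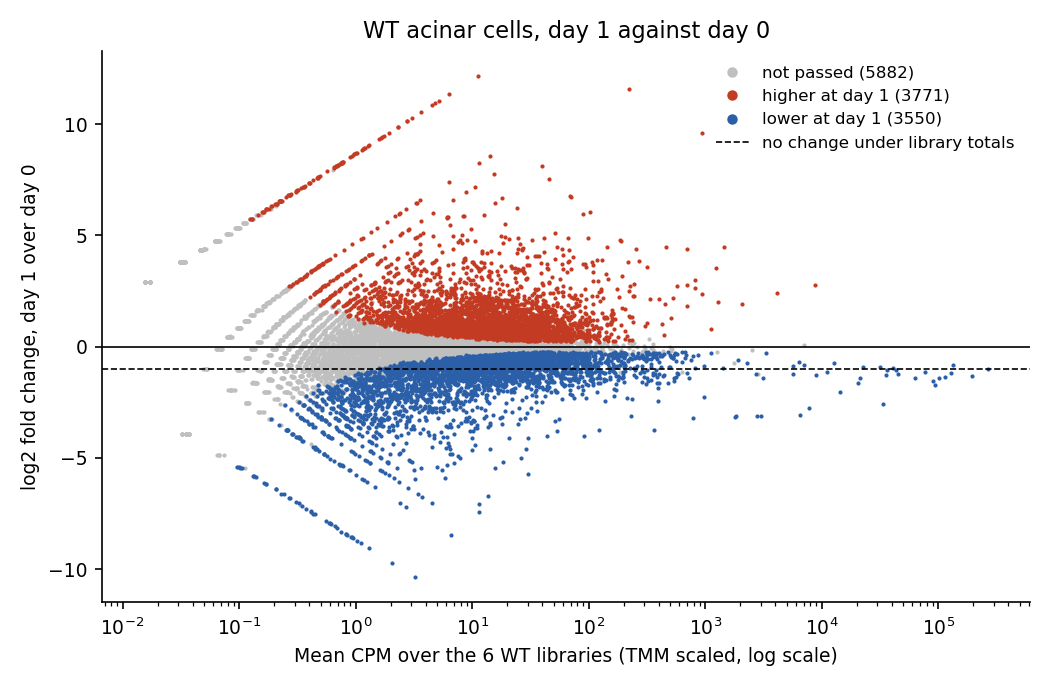
Mean CPM over the 6 WT libraries (x axis, log scale) against the log2 fold change of day 1 over day 0 (y axis) for the 13203 tested genes, with one point per gene. Genes at an adjusted p under 0.05 are drawn in red (3771 higher) and blue (3550 lower), the others in grey, and the dashed line at -1.0 marks where no change lies when libraries are scaled by their totals. The straight lines of points at low CPM are genes without counts on one of the days, for which the fitted value is set by the prior count.

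The KO libraries, which are separate libraries, gave the same direction for most of these genes. Of the 766 genes higher by at least 4-fold in WT, 690 (90.1%) were also higher in KO from day 0 to day 1, where 30.5% of all tested genes were, and 0 were lower. Of the 796 genes lower by at least 4-fold, 592 (74.4%) were also lower in KO, where 27.6% of all tested genes were, and 1 was higher. A test of the difference between the genotypes in this change passed for 13 genes (0.0985%). That count moved with single libraries, to 3 without WT day 0 replicate 2 and to 43 without WT day 0 replicate 1.

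The 15 genes with the steepest rise averaged at most 2.43 CPM in freshly isolated cells, and 4 of them (Cldn4, Defb1, Sprr1a and Tgm1) are in the lists of claudins, of mucosal defence or of cornified envelope, S100 and annexin genes. Of 29 measured genes of the last list 16 were higher and 4 lower. Of 26 of mucosal secretion and defence 11 were higher and 7 lower (13 and 4 under library totals). Over all tested genes 28.6% were higher and 26.9% lower. Sprr1a, a cornified envelope protein of stratified epithelia, was at 0, 0 and 0.387 CPM in the day 0 libraries and at 299.7, 503 and 517 CPM in those of day 1. Over the 3 libraries of a day this was 2 counts and then 13664, a ratio of 3158 after scaling (95% counting interval 874 to 26080). Tgm1, the transglutaminase that cross-links that envelope, went from 0, 0 and 0.387 to 13.4, 27.9 and 21.4 CPM, a ratio of 149 (41.2 to 1235). All 3 day 1 libraries were above all day 0 libraries for both genes, and replicate 1 was the lowest day 1 library. Cldn4, a claudin of tight junctions, had 2.45, 2.51 and 2.32 CPM at day 0 and 1797, 1906 and 1964 CPM at day 1, and by the last time point of the series it stood at 446 ± 48.4 CPM (day 4, mean ± SD, n = 3).

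Defb1, a secreted antimicrobial beta-defensin, rose from 0, 0.209 and 0 to 27.3, 18.8 and 22 CPM, a ratio of 330.0 (59 to 13050). Il1rn, the antagonist that blocks the interleukin-1 receptor, rose from 0, 0.209 and 0.193 to 21.2, 37.3 and 33.4 CPM, a ratio of 219.5 (60.6 to 1816). Neither gene overlapped between the days. Another 3 genes had no count at all in the day 0 libraries and are given as lower bounds against 3 counts over the group. Cyp2b10, a drug-metabolizing cytochrome P450 known from liver as a target of the receptor CAR, was at 13.9, 10.4 and 13.9 CPM at day 1, at least 61.8-fold higher. Pirt, known in neurons as a membrane regulator of the channel TRPV1, was at 10.5, 10.6 and 10.3 CPM, at least 50.2-fold higher, and the unnamed gene 4930539E08Rik at 27.8, 21 and 18.9 CPM, at least 109-fold higher. At day 4 these were at 0.497 ± 0.0841, 1.09 ± 0.0372 and 1.99 ± 0.327 CPM. In GRCm38, Cyp2b10 (ENSMUSG00000030483) lies on chromosome 7 from 25897620 to 25926624 and Sprr1a (ENSMUSG00000050359) on chromosome 3 from 92483952 to 92485895. All intervals and bounds cover counting error only.

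**Figure D2:**
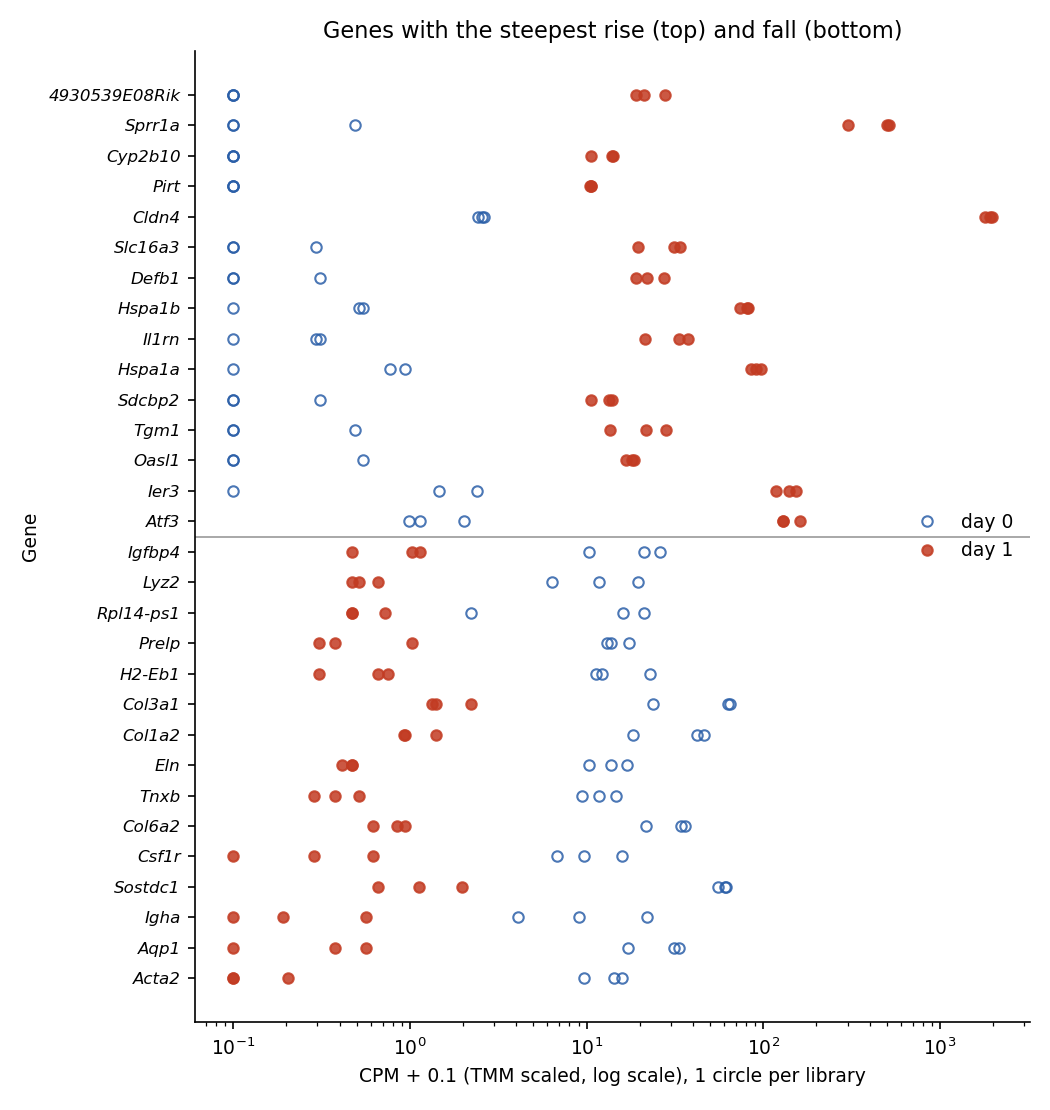
CPM in each of the 6 WT libraries (x axis, log scale of CPM + 0.1) for the 15 genes with the steepest rise and the 15 with the steepest fall among genes that passed the test, averaged 5 CPM or more and did not overlap between days. Open circles are day 0 and filled circles day 1, and in each of the 30 rows the circles of the 2 days lie apart, with points at 0.1 standing for 0 CPM.

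Of the 15 genes with the steepest fall, 6 are in the lists of markers of other cell types (Acta2, Aqp1, Col1a2, Col3a1, Csf1r and Lyz2) and 1 more, Col6a2, in the list of matrix genes. Acta2, the actin of smooth muscle, went from 9.59, 15.7 and 14.1 CPM to 0, 0.103 and 0 CPM, with 191 counts in all at day 0 and 1 at day 1, and was lower by a ratio of 413 (73.3 to 16410). Aqp1, the water channel of endothelium and of ductal and centroacinar cells, went from 17, 31 and 33.2 to 0.463, 0 and 0.279 CPM (log2 fold change -6.70, SE 0.44, adjusted p = 8.01e-12). Igha, the constant region of immunoglobulin A made by plasma cells, fell from 8.92, 3.98 and 21.8 to 0.0927, 0 and 0.464 CPM, and Csf1r, the macrophage growth factor receptor, from 6.69, 9.63 and 15.8 to 0, 0.517 and 0.186 CPM. The days did not overlap in any of these genes, although the day 0 libraries differed among themselves several-fold in Igha. Sostdc1, a secreted inhibitor of BMP and Wnt signalling, is in none of the cell type lists and was at 55.3, 60.9 and 61.5 CPM at day 0 and 1.02, 1.86 and 0.557 CPM at day 1 (log2 fold change -5.72, SE 0.30, adjusted p = 1.48e-12). Rpl14-ps1, a pseudogene whose reads may belong to its parent gene Rpl14, fell from 21, 15.9 and 2.13 to 0.371, 0.621 and 0.371 CPM, with day 0 replicate 3 far below the other day 0 libraries.

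Markers of vessels, stroma and blood cells were at low levels and mostly fell relative to the typical gene. Of 15 measured endothelial markers 14 were lower and 0 higher (26.9% of all genes were lower), of 14 markers of fibroblasts and stellate cells 13 and 0, of 10 of smooth muscle and pericytes 9 and 0, and of 9 of macrophages and monocytes 7 and 2. Under library totals the 4 lists had, in this order, 10, 12, 6 and 6 lower and 0, 1, 0 and 2 higher. Summed over each list, endothelial markers held 55.9 to 98 unscaled CPM at day 0 and 20.4 to 25.6 at day 1, fibroblast markers 57.5 to 140 and 29.2 to 33.7, and smooth muscle markers 15.6 to 36.1 and 8.59 to 11.1. Plvap, of the diaphragms of fenestrated endothelium, fell from 43.5, 52.5 and 40 to 4.54, 4.24 and 3.53 CPM and Dcn, the matrix proteoglycan decorin, from 19, 43.3 and 30.5 to 2.32, 4.65 and 3.25 CPM. Markers of blood cells were scarce at either day. Summed T cell markers had 18 to 78 counts in a day 0 library and 3 to 6 in a day 1 library, B cell markers 94 to 327 and 8 to 52, neutrophil markers 1 to 33 and 0 to 1, and red blood cell markers 29 to 162 and 0 to 11. Cd3e, Cd3d, Cd4 and Cd8a of T cells, S100a9 and Retnlg of neutrophils and Cx3cr1 and Ccr2 of monocytes had counts at day 0 and 0 at day 1. In bulk RNA, fewer cells of a type and less RNA per cell cannot be told apart.

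Islet markers differed widely between libraries of the same day. Of 19 measured, 7 were lower and 0 higher, and their sum ran from 220 to 840 unscaled CPM in the day 0 libraries and from 157 to 492 at day 1. Ins2, one of the pair of mouse insulin genes, was at 319, 1044 and 504 CPM at day 0 and 70, 254 and 185 CPM at day 1 (log2 fold change -1.88, SE 0.67, adjusted p = 3.01e-02). Replicate 2 was the highest at both days. Reads may be shared with the near copy, insulin 1. Without day 0 replicate 2 the log2 fold change was -1.27, without day 1 replicate 1 it was -1.49 and without day 1 replicate 3 it was -1.93, and the gene did not pass the test in these 3 fits, under library totals (-0.93), without the filter on low counts (-1.83) or with the 6 WT libraries alone (-1.95).

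In 4 lists of other cell types the summed markers were higher at day 1 without overlap in unscaled CPM. The typical gene rose on that scale as well. TMM-scaled sums over the measured macrophage markers overlapped, at 30.79 to 67.26 CPM at day 0 and 62.93 to 68.9 at day 1. Those of duct markers were 518.9 to 604.8 and 764.6 to 897.6 CPM, and of Schwann cells 38.65 to 40.82 and 46.43 to 69.14. Those of mesothelium were 41.27 to 52.19 and 443.4 to 556.1 CPM. The summed duct markers held 191 to 236 unscaled CPM at day 0 and 567 to 684 at day 1, Krt19 being the member with the largest rise in CPM, and those of Schwann cells 12.8 to 16.7 and 35.9 to 51.4, nearly all of it Mbp (log2 fold change 0.48, SE 0.13, adjusted p = 2.81e-03), a myelin gene with transcripts outside the nervous system, which did not pass without day 1 replicate 1 (0.29). The summed macrophage markers held 10.4 to 30.9 unscaled CPM at day 0 and 46.8 to 52.5 at day 1. Csf1r and Lyz2 fell, but Cd14, the co-receptor for lipopolysaccharide, rose from 1.34, 1.05 and 1.74 to 38.8, 43.2 and 37.6 CPM and Cd68, a lysosomal glycoprotein, from 1.78, 3.35 and 3.29 to 23.4, 23.3 and 28.6 CPM. The summed mesothelium list held 13.1 to 22.6 unscaled CPM at day 0 and 329 to 424 at day 1, nearly all of it Krt19, which ducts express as well. Wt1, Upk3b, Upk1b, Lrrn4 and Gpm6a of that list had counts at day 0 and 0 at day 1.

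Messenger RNAs of the mitochondrial genome and of the nuclear genes of the respiratory chain stood lower at day 1, and genes of glycolysis stood higher. Mitochondria carry a small circular genome that encodes core subunits of the respiratory chain and the ribosomal RNAs of the organelle, and all other subunits come from the nucleus. Of its 13 protein-coding genes 6 had at most 2 counts in any WT library, mt-Co2, mt-Co3 and mt-Atp6 among them, although every cell uses them, so these 6 are left out of what follows. The other 7 mitochondrial messenger RNAs together took 1.25%, 1.81% and 1.71% of the counts of the day 0 libraries and 0.433%, 0.435% and 0.326% of those of day 1. The 2 mitochondrial ribosomal RNAs took 0.0118%, 0.0223% and 0.0229% at day 0 and 0.0721%, 0.0917% and 0.0535% at day 1. Messenger and ribosomal RNA from the same genome thus moved in opposite directions without overlap. These are unscaled shares of a library, and both directions held under TMM and library totals. The kit is given as TruSeq, and whether it selected poly(A) RNA is not stated.

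Of the 9 mitochondrially encoded genes with a test, the 7 messenger RNAs were lower and the 2 ribosomal RNAs higher, with a median log2 fold change of -3.08. mt-Nd4, a subunit of complex I, was at 3233, 3547 and 2976 CPM at day 0 and at 383, 388 and 329 CPM at day 1 (log2 fold change -3.15, SE 0.13, adjusted p = 2.67e-18). mt-Nd1, another complex I subunit, went from 4544, 5344 and 5037 to 621, 656 and 444 CPM (log2 fold change -3.12, SE 0.16, adjusted p = 4.00e-16). mt-Rnr2, the large ribosomal RNA, went from 212, 329 and 312 to 582, 737 and 402 CPM (log2 fold change 1.01, SE 0.22, adjusted p = 1.18e-03), and mt-Rnr1, the small one, from 160.4, 238 and 230.4 to 390.0, 504 and 299.8 CPM (log2 fold change 0.92, SE 0.19, adjusted p = 4.72e-04). The day 1 libraries lay on one side of all day 0 libraries in each of these 4 genes. In KO the median of the 9 genes was -2.57, and 7 were lower and 2 higher there too. In the authors' FPKM table, which forces libraries to one distribution, 3 of the 9 were lower and 2 higher, with a median log2 fold change of -0.21.

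**Figure D3:**
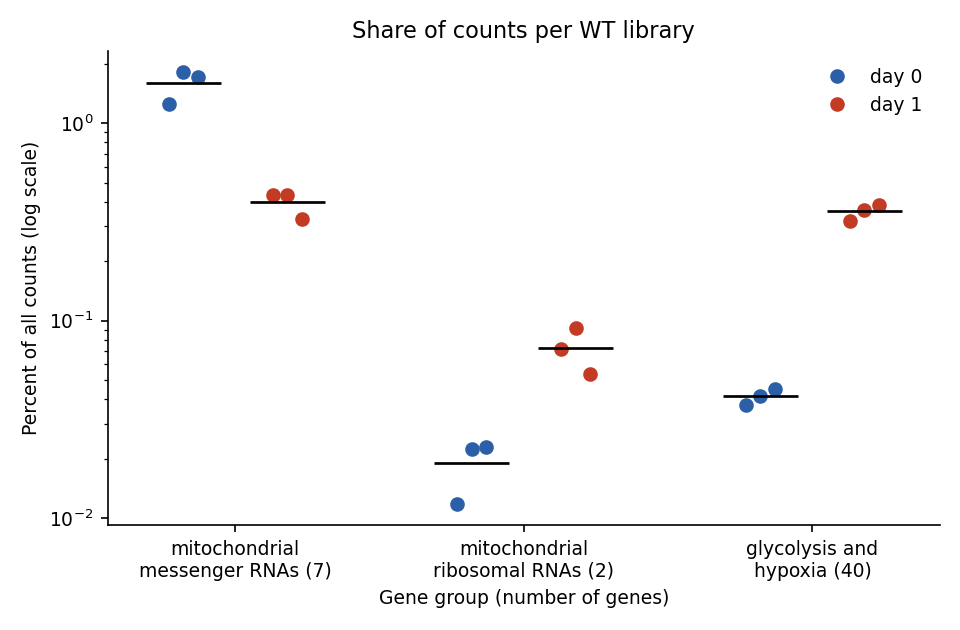
Percent of all counts of a library (y axis, log scale) taken by the 7 mitochondrial messenger RNAs with a test, the 2 mitochondrial ribosomal RNAs and the 40 listed genes of glycolysis and hypoxia, with one point per WT library at day 0 and day 1 and a bar at the mean of 3. The day 1 libraries lie between 0.326% and 0.435% for mitochondrial messenger RNAs, below the 1.25% to 1.81% of day 0, and above day 0 in the other 2 groups.

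The nuclear subunits of the respiratory chain followed the direction of the mitochondrial messenger RNAs relative to the typical gene. Of 75 measured, 69 were lower and 0 higher, with a median of -0.74, but scaling by library totals gave 35 higher, 1 lower and a median of 0.26. Atp5j, a coupling subunit of ATP synthase, had 85.5, 67.2 and 67.6 CPM at day 0 and 28.8, 30.7 and 32.2 CPM at day 1 (log2 fold change -1.26, SE 0.11, adjusted p = 3.20e-11). Ndufa4, a subunit that sits with complex IV, had 49.8, 39.1 and 36.1 and 17.2, 21.1 and 16.9 CPM (log2 fold change -1.18, SE 0.14, adjusted p = 4.97e-08). Neither overlapped between the days. Under library totals their values were -0.26 and -0.17, and only the first passed the test. Enzymes of the tricarboxylic acid cycle and of fatty acid oxidation were mixed, with 24 of 41 lower and 5 higher, and with 4 lower and 28 higher under library totals. Idh3a, the catalytic subunit of the NAD-dependent isocitrate dehydrogenase, fell from 23, 23 and 26.3 to 7.23, 7.86 and 7.43 CPM, and Acadl, the long-chain acyl-CoA dehydrogenase, rose from 11.8, 11.7 and 10.8 to 36.6, 35.1 and 40.7 CPM.

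Of 38 measured genes of glycolysis and the hypoxia response, 31 were higher and 3 lower, with a median log2 fold change of 2.01 against 0.01 over all genes. The list held 0.0413% ± 0.00397 of counts at day 0 and 0.357% ± 0.0339 at day 1 (SD, n = 3). Slc2a1, the glucose transporter GLUT1, rose from 6.69, 7.12 and 5.99 to 181, 199.9 and 194 CPM (log2 fold change 4.86, SE 0.18, adjusted p = 2.95e-18). Pfkfb3, which makes the allosteric activator of phosphofructokinase, rose from 2.68, 3.56 and 7.34 to 104, 105 and 97 CPM (log2 fold change 4.46, SE 0.24, adjusted p = 6.02e-12). Slc16a3, the lactate exporter MCT4, had 1 count in all at day 0 and 875 at day 1, at 19.5, 31.2 and 33.7 CPM, a ratio of 404 (72.4 to 15990). All day 1 libraries were above all day 0 libraries in these 3 genes. Gapdh, a glycolytic enzyme often used as a reference gene, rose from 14.3, 10.9 and 19.5 to 205, 262 and 197 CPM, though its many processed copies in the genome make its reads uncertain. Pfkm, the muscle type of phosphofructokinase, fell from 12.7, 15.7 and 12.6 to 5.19, 6.83 and 6.32 CPM, a change that did not pass the test under library totals (-0.17). Slc16a3 stood at 1.74 ± 0.712 and Pfkfb3 at 15.7 ± 1.05 CPM at day 4.

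Genes of the secretory machinery were lower relative to the typical gene at day 1, while genes that build ribosomes were higher. Of 31 measured chaperones and folding enzymes of the endoplasmic reticulum (ER), 19 were lower and 4 higher (median -0.83), and of 39 genes of translocation into the ER and of degradation from it, 30 were lower and 2 higher (median -0.92). Under library totals the medians were 0.17 and 0.06, with 14 higher and 7 lower in the first list and 15 higher and 14 lower in the second. Sel1l, the scaffold of the ubiquitin ligase that clears misfolded ER proteins, was at 1505, 1310 and 1482 CPM at day 0 and 173, 140.1 and 148 CPM at day 1 (log2 fold change -3.22, SE 0.15, adjusted p = 1.77e-16). Tram1, a partner of the translocation channel, fell from 289, 241 and 257 to 71.1, 73.3 and 65.3 CPM (log2 fold change -1.91, SE 0.10, adjusted p = 2.40e-16). Neither gene overlapped between the days, and both remained lower under library totals (-2.23 and -0.91).

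The 2 oxidases that drive disulfide formation in the ER went in opposite directions. Ero1lb, the form of secretory cells such as pancreas, fell from 750.5, 647 and 619 to 133, 132 and 100 CPM (log2 fold change -2.47, SE 0.19, adjusted p = 5.41e-09), and Ero1l, the widely expressed and hypoxia-inducible form, rose from 12.9, 10.5 and 11.6 to 120.1, 129 and 138 CPM (log2 fold change 3.47, SE 0.21, adjusted p = 5.12e-11). The ER chaperone Hspa5 (BiP), whose day 0 libraries ranged widely, went from 1115, 763 and 586 to 1573, 1321 and 1397 CPM (log2 fold change 0.80, SE 0.19, adjusted p = 1.52e-03), but it did not pass the test in the FPKM table (0.55 with either pseudocount). Genes of the unfolded protein and integrated stress response were split, with 12 of 34 higher and 13 lower, and with 26 higher and 1 lower under library totals. Atf3 and Ddit3, transcription factors induced by stress, rose from 0.892, 1.05 and 1.93 to 162, 129 and 129.5 CPM and from 1.78, 1.47 and 3.87 to 58.4, 51 and 43.9 CPM. Pycr1, an enzyme of proline synthesis that ATF4 is known to induce, fell from 194, 164 and 148 to 51.7, 52.2 and 48.6 CPM.

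Of 47 measured genes of ribosome biogenesis, 42 were higher and 1 lower, with a median of 0.96. Nop58, a core protein of box C/D small nucleolar particles, rose from 8.7, 6.91 and 14.9 to 62.6, 63.8 and 56.2 CPM (log2 fold change 2.56, SE 0.17, adjusted p = 3.54e-13), and Heatr1, a factor of early ribosomal RNA processing, from 6.47, 9.21 and 10.2 to 37.3, 34.4 and 35.3 CPM (log2 fold change 2.03, SE 0.15, adjusted p = 1.45e-12). The ribosomal proteins themselves were not higher on the TMM scale. Of 78 measured, 0 were higher and 66 lower with a median of -0.36, a direction that turned under library totals (78 higher, 0 lower, median 0.65). Their share of counts was 1.04%, 1.1% and 1.06% at day 0 and 1.58%, 1.69% and 1.75% at day 1. Rps2 was at 768, 689 and 611 CPM at day 0 and 406, 468 and 434 CPM at day 1, a log2 fold change of -0.66 on the TMM scale and 0.34 under library totals. Under library totals the median of the ribosome biogenesis genes was 1.95. Amino acid transporters were mostly lower, with 15 of 26 lower and 3 higher, though 2 were lower and 12 higher under library totals. Slc7a8, the LAT2 light chain for neutral amino acids, fell from 440.0, 415 and 392 to 43.8, 50.6 and 48.3 CPM (log2 fold change -3.13, SE 0.18, adjusted p = 2.83e-11), and Slc38a5, a glutamine carrier, from 315, 268 and 229 to 60.6, 60.6 and 53.5 CPM. Slc38a1, another glutamine carrier, rose from 5.58, 4.82 and 8.12 to 55, 48.8 and 53.4 CPM, as did Slc7a11, the xCT gene itself, from 11.2, 10.1 and 9.47 to 70.2, 63.9 and 77.1 CPM.

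Receptors and transcription factors of regulated secretion were lower together with the enzymes. Of 38 measured genes of secretagogue signalling and exocytosis, 24 were lower and 10 higher, and under library totals 10 were lower and 19 higher. Cckar, the cholecystokinin receptor that triggers enzyme release in rodent acinar cells, had 721, 637 and 656 CPM at day 0 and 55.2, 49.6 and 43.5 CPM at day 1 (log2 fold change -3.76, SE 0.14, adjusted p = 3.32e-19). Plcb1, a phospholipase C of that pathway, fell from 12.5, 13.2 and 11.4 to 0.834, 1.34 and 1.58 CPM (log2 fold change -3.30, SE 0.32, adjusted p = 4.48e-10). Neither overlapped between the days, and at day 4 Cckar stood at 104 ± 20.4 CPM. Sytl2, a tether of secretory granules, went the other way, with 2 counts in all at day 0 and 427 at day 1, from 0.223, 0.209 and 0 to 15.8, 13 and 12.2 CPM. Of 10 measured acinar transcription factors, 9 were lower and 0 higher, and under library totals 6 were lower and 3 higher. Creb3l1, an ER-bound factor that supports secretory capacity, fell from 128, 95 and 79.8 to 12.5, 9.31 and 10.1 CPM (log2 fold change -3.24, SE 0.15, adjusted p = 6.35e-17), and Bhlha15 (MIST1), which organizes the secretory apparatus, from 327, 323 and 416 to 55.2, 71.4 and 88 CPM (log2 fold change -2.31, SE 0.31, adjusted p = 2.99e-05). Mecom, known as a survival factor of dedifferentiated acinar cells, was lower as well, from 14.3, 19.1 and 15.7 to 5.47, 3.52 and 2.97 CPM, and stood at 19.5 ± 2.63 CPM at day 4.

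The enzymes did not fall evenly relative to one another. Rnase1, the pancreatic ribonuclease, took 2.1, 2.11 and 2.14 percent of the counts in the day 0 libraries and 0.703, 0.725 and 0.715 percent in those of day 1, and 2210010C04Rik, annotated as a trypsinogen gene, 5.41, 5.31 and 5.18 percent and 3.26, 3.27 and 3.16 percent. Ctrb1, chymotrypsinogen B, took 13.8, 12.7 and 12.6 percent and 13.7, 12.7 and 13.4 percent, and its log2 fold change was -0.99 on the TMM scale and 0.02 under library totals. Cela1, elastase 1, gave -0.81 and 0.20. In the FPKM table, whose normalization gives the top-ranked genes of every library the same values, 2210010C04Rik, Ctrb1 and Cela1 had a log2 fold change of 0. Clu, the secreted chaperone clusterin, gained the largest share of counts of all genes in the table, from 0.0858, 0.085 and 0.0744 percent to 1.11, 1.05 and 1.24 percent, and Nupr1, a stress-induced chromatin protein of pancreatitis, went from 0.0533, 0.0523 and 0.0375 percent to 0.531, 0.466 and 0.549 percent.

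Heat shock proteins refold or hold damaged proteins, and the factor HSF1 is known to switch on their genes when unfolded protein accumulates. Of 41 measured cytosolic chaperones and co-chaperones, with the mitochondrial Hspe1 and Hspd1 among them, 34 were higher and 2 lower, with a median of 1.25. The list went from 0.063%, 0.0671% and 0.0719% of counts at day 0 to 0.472%, 0.485% and 0.468% at day 1. The 2 inducible HSP70 genes were near 0 at isolation. Hspa1b had 0.446, 0.419 and 0 CPM at day 0 and 80.8, 73.7 and 82.3 CPM at day 1, and Hspa1a 0.669, 0.837 and 0 and 96.5, 85 and 90.6 CPM. All day 1 libraries were above all day 0 libraries. The 2 genes are near-identical copies, and reads may be shared between them. Hsph1, the HSP110 nucleotide exchange factor, rose from 14.9, 11.7 and 11.2 to 283, 309.5 and 237 CPM (log2 fold change 4.46, SE 0.15, adjusted p = 1.28e-20). Bag1 and Fkbp4, co-chaperones of HSP70 and HSP90, were the 2 lower members at -0.83 and -0.73, but at 0.17 and 0.28 under library totals.

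Promoter sequence was read for the 2 members with the steepest rise that hold a heat shock element, searched on both strands as GAA and TTC units in alternation (GAA, TTC, GAA, or on the other strand TTC, GAA, TTC) with any 2 bases between units, between 200 bases before and 30 after a RefSeq start. They are shown because the letters that HSF1 is known to bind can be read in them, in capitals here, 5′ to 3′ on the gene's strand in GRCm38.p6.
Hsph1: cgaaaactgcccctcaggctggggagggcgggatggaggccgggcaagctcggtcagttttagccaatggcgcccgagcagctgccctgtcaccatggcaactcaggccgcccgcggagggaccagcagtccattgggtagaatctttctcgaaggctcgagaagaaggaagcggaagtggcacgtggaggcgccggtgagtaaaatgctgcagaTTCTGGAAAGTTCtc
Hspe1: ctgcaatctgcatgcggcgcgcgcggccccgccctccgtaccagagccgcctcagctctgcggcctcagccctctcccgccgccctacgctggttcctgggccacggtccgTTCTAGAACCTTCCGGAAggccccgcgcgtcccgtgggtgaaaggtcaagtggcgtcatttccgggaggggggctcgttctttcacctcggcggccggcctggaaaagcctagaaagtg
The Hsph1 window is chr5:149636286-149636515 on the minus strand, 1 of 2 starts of the gene, with the match starting 15 bases after the start. The Hspe1 window is chr1:55087948-55088177 on the plus strand, with 2 overlapping matches that start 89 and 84 bases before the start. Hspe1, the small mitochondrial chaperonin, was at 12.1, 12.6 and 16.8 CPM at day 0 and 36.9, 37 and 33.3 CPM at day 1 (log2 fold change 1.36, SE 0.15, adjusted p = 2.64e-09). It lies head to head with Hspd1, its large partner, and their windows of 300 bases share 285 bases. The Hspd1 matches are the same bases read from the other strand, and both genes are counted in the list share that follows. A match was present in 5 of the 35 measured list genes with a window (14.3%) and in 0.469% of all 32851 windows. Among tested genes with a window it was found in 3 of the 546 higher by at least 4-fold (0.549%), 1 of the 530 lower by at least 4-fold (0.189%) and 0.479% of all 9807, so the share among rising genes was near the background. Matches are letters only and were not tested as binding sites.

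Interferon-stimulated genes showed the highest median of the lists of pathways apart from keratins. Of 26 measured, 25 were higher and 0 lower, with a median of 3.43. Rsad2 (viperin), which blocks viral replication, was at 0.892, 4.19 and 3.29 CPM at day 0 and 217, 152 and 163 CPM at day 1 (log2 fold change 5.97, SE 0.30, adjusted p = 4.17e-11). Ifit3, which binds foreign RNA with its IFIT partners, was at 0.446, 0 and 0.387 and 18.3, 15.4 and 16.2 CPM (log2 fold change 5.88, SE 0.71, adjusted p = 2.68e-06). Every day 1 library was above every day 0 library, and at day 4 the 2 genes stood at 1.39 ± 0.453 and 0.238 ± 0.0882 CPM. Oasl1, a regulator of the antiviral response, had 2 counts in all at day 0 and was at 16.6, 18.5 and 17.9 CPM at day 1. The windows of the 2 steepest members that hold the core of the interferon-stimulated response element, searched on both strands as GAAA repeated after any 2 bases (TTTC repeated on the other strand), are shown, with the matches in capitals.
Rsad2: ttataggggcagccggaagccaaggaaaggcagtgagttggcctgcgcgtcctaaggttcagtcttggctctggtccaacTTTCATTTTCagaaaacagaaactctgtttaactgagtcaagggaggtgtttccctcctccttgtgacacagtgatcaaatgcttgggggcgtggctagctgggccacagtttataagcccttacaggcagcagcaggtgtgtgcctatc
Ifit3: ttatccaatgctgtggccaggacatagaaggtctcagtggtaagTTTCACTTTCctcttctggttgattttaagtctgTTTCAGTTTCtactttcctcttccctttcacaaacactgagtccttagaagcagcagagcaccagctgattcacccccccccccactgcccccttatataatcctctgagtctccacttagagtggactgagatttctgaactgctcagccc
The Rsad2 window is chr12:26456423-26456652 on the minus strand, with its match 120 bases before the start, and the Ifit3 window is chr19:34583329-34583558 on the plus strand, with matches 156 and 122 bases before it. Of 19 measured list genes with a window 8 held a match (42.1%), against 2.58% of all windows. Among tested genes with a window, a match was found in 6.23% of the 546 genes higher by at least 4-fold, 3.02% of the 530 lower by at least 4-fold and 2.62% of all 9807.

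Of 25 measured genes of antigen presentation 16 were higher and 5 lower, the latter being 4 class II genes and Psmb10. The peptide pump of the class I pathway rose, with Tap1 from 6.69, 3.77 and 6.38 to 43.8, 37.4 and 44 CPM (log2 fold change 2.89, SE 0.19, adjusted p = 1.09e-13) and Tap2 from 6.92, 9.21 and 10.8 to 22.8, 26.3 and 25.8 CPM (log2 fold change 1.46, SE 0.23, adjusted p = 8.26e-06). The class I-like gene H2-Q4 rose from 5.58, 7.33 and 6.38 to 40.4, 36.1 and 36.6 CPM, with the caution that H2 class I genes are near copies of each other. Psmb10, an immunoproteasome subunit that serves the class I pathway, fell from 213, 163 and 137 to 61.5, 69.8 and 61.9 CPM (log2 fold change -1.41, SE 0.14, adjusted p = 9.16e-09). Class II genes, which antigen-presenting cells express, fell without overlap between the days. H2-Eb1 went from 11.2, 12.1 and 22.6 to 0.556, 0.207 and 0.65 CPM (log2 fold change -4.99, SE 0.43, adjusted p = 3.64e-11) and Cd74, the invariant chain, from 39.3, 48.4 and 83.7 to 2.97, 3.31 and 3.71 CPM (log2 fold change -4.10, SE 0.35, adjusted p = 5.75e-08). Replicate 3 was the highest day 0 library for H2-Eb1, Cd74, Csf1r and Lyz2. Summed B cell markers and 7 of 9 macrophage markers, all but Cd14 and Cd68, were lower as well, as given above, and their part in the fall of class II genes was not tested.

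Genes of NF-kB feedback and of cytokine signalling were mostly higher. Of 29 measured NF-kB genes 21 were higher and 1 lower (median 1.01), and of 40 cytokines, chemokines and receptors 25 were higher and 4 lower (median 1.96). Bcl3, a nuclear IkB protein, rose from 2.01, 1.47 and 0.773 to 31.9, 26 and 24.6 CPM (log2 fold change 4.30, SE 0.25, adjusted p = 3.41e-15), and Relb, the subunit of the noncanonical pathway, from 4.02, 4.4 and 1.35 to 38.5, 37.4 and 43.4 CPM (log2 fold change 3.64, SE 0.20, adjusted p = 1.08e-15). Tnfrsf12a, the receptor for TWEAK, rose from 2.45, 2.09 and 3.48 to 71.3, 79.1 and 90.9 CPM (log2 fold change 4.89, SE 0.17, adjusted p = 5.32e-20). Cxcl16, a membrane-bound chemokine, rose from 2.45, 2.51 and 2.51 to 46.6, 41.5 and 49.5 CPM. None of these 4 genes overlapped between the days. Cxcl12, a chemokine of stromal cells, fell from 20.8, 19.7 and 24.5 to 5, 6.72 and 6.04 CPM, and Il22ra1, the interleukin-22 receptor of acinar cells, from 34.8, 41.2 and 58.8 to 10.8, 14.4 and 13.9 CPM.

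Members of the Reg family, secreted lectins known from pancreatitis, did not move one way. The 3 rises given here, which are not all of those in the family, had a wide error. Reg3g was at 18.7, 10.5 and 10.4 CPM at day 0 and 279.8, 408 and 387 CPM at day 1 (log2 fold change 4.77, SE 1.32, adjusted p = 7.78e-03), Reg3b at 114, 41.5 and 37.9 and 1031, 1464 and 1503 CPM (log2 fold change 4.37, SE 1.27, adjusted p = 1.05e-02) and Reg2 at 1284, 741 and 534 and 3206, 3256 and 3314 CPM (log2 fold change 1.93, SE 0.65, adjusted p = 2.34e-02). Reg2 did not pass the test without day 0 replicate 2 (log2 fold change 1.85) or without day 0 replicate 3 (1.69). The WT libraries of the 2 days did not overlap in any of the 3. In KO the same genes had log2 fold changes of -0.20, 0.12 and -0.03, and none passed the test there. The difference in change between the genotypes did not pass either, at an adjusted p of 0.311 for Reg3g, 0.371 for Reg3b and 0.466 for Reg2. Reg1 fell from 37570, 24960 and 26890 to 16810, 15370 and 14970 CPM (log2 fold change -0.92, SE 0.16, adjusted p = 1.40e-05), with 0.09 under library totals and no change in the FPKM table, and Reg3d, at 729, 432 and 447 and 489, 506 and 498 CPM, did not pass (log2 fold change -0.11, SE 0.27, adjusted p = 7.63e-01) except as higher under library totals (0.92). Reg3 genes are near copies of each other. Lcn2, lipocalin 2, which binds bacterial siderophores, rose from 0.892, 2.93 and 0.966 to 35.5, 59.9 and 47.9 CPM (log2 fold change 4.90, SE 0.51, adjusted p = 2.28e-06).

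Of 24 measured immediate early and AP-1 genes 13 were higher and 0 lower (median 1.63), and 11 did not pass the test. Among these 11 were Fos (3.12, 23 and 54.7 CPM at day 0 and 52.2, 39.2 and 31.7 at day 1, adjusted p = 3.85e-01), Jun (21.6, 56.3 and 80.6 and 112, 71 and 71.1, adjusted p = 9.76e-02) and Egr1 (14.7, 55.9 and 128 and 249, 45 and 45.5, adjusted p = 3.77e-01), whose libraries overlapped between the days. Without day 0 replicate 3, the highest of that day in Fos, Fos and Jun passed as higher (log2 fold changes 1.63 and 1.12), as they did under library totals (1.49 and 1.60). A list of MAPK phosphatases and Sprouty family genes, known brakes of MAP kinase signalling, also holds related genes such as Etv4, Ier3 and Rin1. Of its 21 measured genes 17 were higher and 2 lower (median 2.2). The 2 lower ones were Spry1 and Spry4 (log2 fold changes -1.0 and -3.35), and Spry2 did not pass. No measured Spry gene was thus higher on the TMM scale, while the related Spred1, Spred2 and Spred3 were (0.92, 0.87 and 4.14). Under library totals 19 genes of the list were higher and 1 lower. Maff, a small MAF factor, was at 0.446, 1.05 and 0.773 CPM at day 0 and 22, 19.8 and 19.9 CPM at day 1 (log2 fold change 4.74, SE 0.24, adjusted p = 2.18e-16), and Csrnp1, a nuclear protein of the immediate early response, at 0.669, 1.88 and 2.71 and 20.5, 22.4 and 19.3 CPM (log2 fold change 3.52, SE 0.24, adjusted p = 1.79e-13). Ier3, an immediate early regulator of survival, rose from 0, 2.3 and 1.35 to 153, 118 and 140.4 CPM, and Dusp5, a nuclear phosphatase of ERK, from 0.892, 1.88 and 1.35 to 17.2, 17.7 and 15.3 CPM. The days did not overlap in these 4 genes. The windows of Maff and Csrnp1 are shown since they are the 2 steepest list members with a match to TGANTCA, the AP-1 site, or TGACGTCA, the cyclic AMP response element, both of which read the same on either strand in their fixed letters.
Maff: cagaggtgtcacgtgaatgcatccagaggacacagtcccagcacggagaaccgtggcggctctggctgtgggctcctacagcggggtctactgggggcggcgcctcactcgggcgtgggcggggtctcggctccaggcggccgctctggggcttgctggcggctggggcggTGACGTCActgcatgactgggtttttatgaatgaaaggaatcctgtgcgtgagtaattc
Csrnp1: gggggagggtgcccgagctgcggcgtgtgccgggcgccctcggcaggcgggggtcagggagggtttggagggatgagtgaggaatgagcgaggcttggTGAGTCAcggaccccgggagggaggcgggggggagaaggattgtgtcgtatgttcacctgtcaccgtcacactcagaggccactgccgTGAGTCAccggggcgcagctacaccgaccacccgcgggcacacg
The Maff window is chr15:79347320-79347549 on the plus strand, 1 of 3 starts of the gene, with TGACGTCA 29 bases before the start. The Csrnp1 window is chr9:119982994-119983223 on the minus strand, 1 of 4 starts, with TGANTCA matches 102 and 14 bases before the start. TGANTCA was found in 12.8% of the 546 genes higher by at least 4-fold, 6.04% of the 530 lower by at least 4-fold and 5.24% of all 9807 tested genes with a window, and in 6.21% of all windows. TGACGTCA was found in 4.4%, 2.45% and 3.55% of the same genes and in 1.67% of all windows. Of the 20 measured list genes with a window 1 held TGANTCA (5%), near the share of all tested genes, and 2 held TGACGTCA (10%).

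In the EGF family a stress-induced ligand was higher and the founding ligand lower. Of 14 measured ligands, receptors and inhibitors 8 were higher and 1 lower. Hbegf, the stress-induced ligand, which is shed from the membrane, rose from 1.56, 0.837 and 1.55 to 19.7, 19.8 and 15.9 CPM (log2 fold change 3.80, SE 0.27, adjusted p = 3.96e-13), and Egf, the founding ligand, fell from 159, 134 and 158 to 41.1, 52.9 and 42.7 CPM (log2 fold change -1.72, SE 0.13, adjusted p = 2.45e-12). Of the receptors, Erbb3 rose from 22.8, 23.4 and 14.7 to 71.1, 70.4 and 68.5 CPM (log2 fold change 1.79, SE 0.13, adjusted p = 4.41e-13). No library of one day overlapped with the other in these 3 genes.

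Keratins and genes of the actin cytoskeleton were mostly higher. Acini build their keratin filaments from the simple-epithelial pair of Krt8 and its partner, and ducts add Krt19 and Krt7. Of 9 measured keratins 8 were higher and 0 lower, with a median of 3.54, and the listed keratins together went from 0.0141%, 0.0143% and 0.0144% of counts at day 0 to 0.383%, 0.419% and 0.462% at day 1. Krt8 was at 142, 115 and 118 CPM at day 0 and 2581, 2756 and 2981 CPM at day 1 (log2 fold change 4.47, SE 0.13, adjusted p = 1.19e-21), and Krt19 at 31.9, 36.9 and 36.7 and 443, 509 and 554 CPM (log2 fold change 3.83, SE 0.15, adjusted p = 9.92e-19). In KO the median of the 9 keratins was 2.83. Duct markers as a list did not move one way, with 5 of 16 higher and 6 lower. Krt7 rose from 4.68, 5.65 and 3.87 to 12.3, 23.8 and 22 CPM, while Pkhd1, the fibrocystin of duct cilia, fell from 13.4, 16.3 and 18.2 to 3.62, 3.41 and 1.86 CPM (log2 fold change -2.44, SE 0.22, adjusted p = 6.68e-11).

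Of 55 measured genes of the actin cytoskeleton and of SRF targets, 39 were higher and 6 lower (median 1.2), and together they took 0.0546%, 0.0692% and 0.0832% of counts at day 0 and 0.502%, 0.541% and 0.556% at day 1. Actg1, cytoplasmic gamma actin, rose from 34.6, 40.4 and 44.6 to 823, 956 and 876 CPM (log2 fold change 4.47, SE 0.14, adjusted p = 4.75e-21), and Tpm4, a tropomyosin of stress fibres, from 9.59, 13.4 and 19.3 to 182, 198 and 215 CPM (log2 fold change 3.80, SE 0.15, adjusted p = 1.76e-18). All day 1 libraries were above all day 0 libraries in both. Vim, the mesenchymal filament vimentin, fell from 17, 25.3 and 25.1 to 2.97, 4.03 and 5.39 CPM (log2 fold change -2.45, SE 0.45, adjusted p = 4.17e-04), together with the markers of fibroblasts and endothelium given above. Of 48 measured collagens, laminins and matrix proteases 24 were lower and 9 higher. Col3a1, a fibrillar collagen of fibroblasts, fell from 23.6, 64.9 and 63.2 to 2.13, 1.24 and 1.3 CPM (log2 fold change -5.02, SE 0.72, adjusted p = 5.30e-05). Plat and Plaur, the tissue plasminogen activator and the urokinase receptor, rose from 1.34, 1.47 and 1.93 to 10.8, 25.9 and 22.8 and from 0, 0.209 and 0.387 to 10.8, 12.4 and 13.3 CPM.

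Transcription factors of pancreatic progenitors and of metaplasia were split relative to the typical gene. Of 31 measured, 15 were higher and 8 lower, and under library totals 22 were higher and 3 lower. Klf6, an injury-induced Krüppel-like factor, had 8.92, 13.6 and 14.7 CPM at day 0 and 276, 116 and 104 CPM at day 1, with replicate 1 the highest by far (log2 fold change 3.73, SE 0.37, adjusted p = 1.58e-06). Elf3, an epithelial ETS factor, rose from 14.3, 17.2 and 8.31 to 55.5, 59 and 56.8 CPM (log2 fold change 2.12, SE 0.15, adjusted p = 2.73e-13). Pdx1, required for pancreas formation, fell from 10, 8.16 and 11.2 to 1.48, 1.86 and 1.86 CPM (log2 fold change -2.50, SE 0.25, adjusted p = 4.95e-10), and Foxa2, a pioneer factor of endoderm, from 28.8, 22 and 24 to 7.04, 7.65 and 9.01 CPM (log2 fold change -1.65, SE 0.14, adjusted p = 4.08e-11). The days did not overlap in these 4 genes. Sox9, the factor of ducts and progenitors, rose from 22.5, 24.1 and 20.3 to 32.6, 35.9 and 32.5 CPM (log2 fold change 0.60, SE 0.15, adjusted p = 1.15e-03), but did not pass the test in the FPKM table (0.32 with a pseudocount of 1 and 0.37 with 0.1).

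Genes of proliferation were not higher as a group relative to the typical gene. Of 51 measured genes of DNA replication and mitosis 1 was higher, 14 were lower and 36 did not pass (median -0.86). The lower ones were near the share of all tested genes (26.9%), and the higher ones below theirs (28.6%). Under library totals 12 were higher and 9 lower (median 0.13). Mki67, the proliferation marker Ki-67, was at 16.1, 21.6 and 16 CPM at day 0 and 1.48, 1.86 and 1.86 CPM at day 1 (log2 fold change -3.37, SE 0.85, adjusted p = 4.42e-03), and Top2a, the topoisomerase of dividing cells, at 9.15, 11.1 and 7.15 and 1.21, 0.827 and 0.929 CPM (log2 fold change -3.19, SE 0.43, adjusted p = 8.76e-07). Cdkn1a (p21), an inhibitor of cyclin-dependent kinases, rose from 19.2, 25.1 and 43.3 to 429, 394 and 406 CPM (log2 fold change 3.80, SE 0.18, adjusted p = 2.75e-13), and the D-type cyclins Ccnd1 and Ccnd2 fell from 24.5, 17.2 and 19.7 to 5.75, 7.03 and 6.32 and from 149.9, 129.8 and 147 to 59.7, 56.5 and 59.6 CPM. Neither cyclin overlapped between the days. In KO, 25 of the 51 genes were lower and 5 higher.

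Genes of the circadian clock changed in both arms of its feedback loop, in which an activator complex that includes the product of Arntl drives its own repressors. Of 21 measured clock genes 13 were higher and 5 lower. Nr1d1, the repressor REV-ERB alpha, rose from 8.48, 14.7 and 6.38 to 76, 101 and 82.5 CPM (log2 fold change 3.14, SE 0.22, adjusted p = 2.54e-10), and Dbp, an output of the clock, from 3.79, 3.35 and 3.67 to 22.1, 19.1 and 15.3 CPM (log2 fold change 2.39, SE 0.21, adjusted p = 3.53e-11). Arntl itself fell from 17.6, 19.7 and 16.8 to 7.14, 7.76 and 6.22 CPM (log2 fold change -1.36, SE 0.18, adjusted p = 1.09e-07), a change that did not pass the test under library totals (-0.37). The days did not overlap in these genes. The time of day of each collection is not given, so clock time and culture cannot be told apart.

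Of 24 measured genes of polyamine and arginine metabolism 6 were higher and 8 lower, near the shares of all tested genes. Under library totals 17 of them were higher and 2 lower. Sat1, the rate-limiting acetyltransferase of polyamine breakdown, rose from 6.02, 5.65 and 8.12 to 113, 119 and 109 CPM (log2 fold change 4.10, SE 0.15, adjusted p = 9.57e-20), and Smox, spermine oxidase, from 41.7, 31 and 37.5 to 151, 172 and 201 CPM, while Paox, the oxidase of acetylated polyamines, did not pass the test (log2 fold change 0.41, SE 0.34, adjusted p = 3.07e-01) except without day 0 replicate 1 (1.17) and under library totals (1.43). Gatm, which starts creatine synthesis and is abundant in pancreas, fell from 332, 392 and 461 to 67.9, 83.8 and 77 CPM (log2 fold change -2.38, SE 0.14, adjusted p = 2.00e-13). Of 43 measured splicing regulators 28 were higher and 2 lower (median 0.52). Of 31 measured genes of apoptosis and the BCL2 family 16 were higher and 2 lower. Bcl2l1 (BCL-XL), which protects cells, rose from 14.1, 16.1 and 13.9 to 79.6, 78.2 and 79.4 CPM, and Bax, which permeabilizes mitochondria, from 6.47, 11.1 and 6.38 to 27.4, 30.1 and 35.7 CPM. Por, the reductase that feeds electrons to all microsomal cytochromes P450, rose from 14.7, 17.2 and 16 to 191, 197 and 224 CPM (log2 fold change 3.67, SE 0.14, adjusted p = 3.85e-19). Of 38 proteasome genes 17 were higher and 5 lower, and of 48 genes of autophagy and the lysosome 17 were higher and 18 lower. Over all tested genes these shares were 28.6% and 26.9%. Under library totals 38 proteasome genes were higher and 0 lower, and 42 genes of autophagy and the lysosome were higher and 2 lower.

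**Figure D4:**
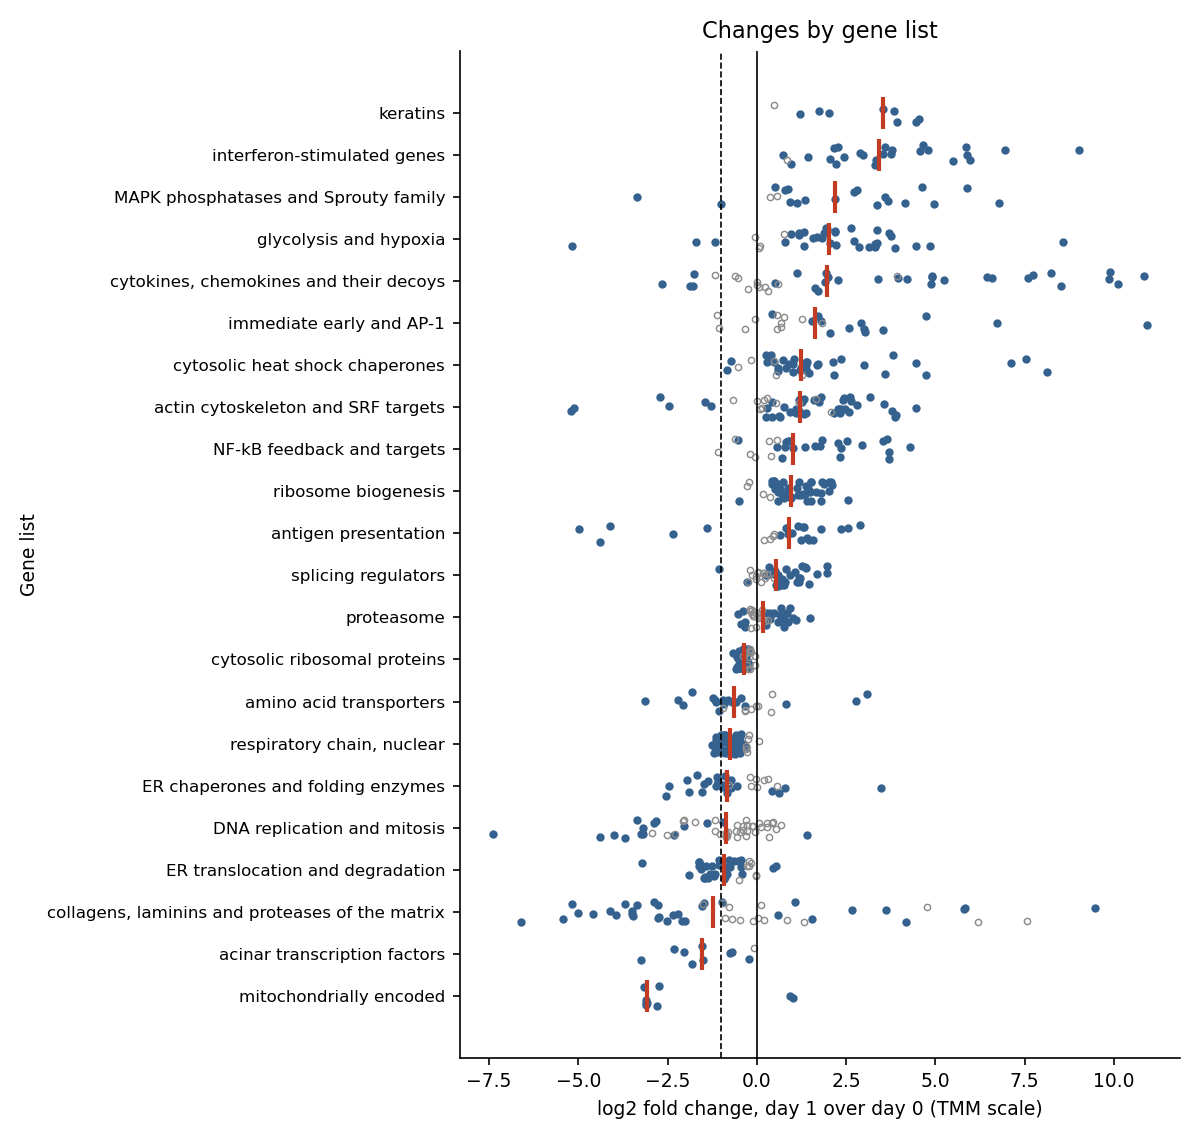
Log2 fold change of day 1 over day 0 (x axis, TMM scale) for each measured gene of 22 lists, with one point per gene, filled where the adjusted p is under 0.05, and a red bar at the list's median. The solid line is no change on the TMM scale and the dashed line at -1.0 is no change under library totals. Interferon-stimulated genes and keratins have the highest medians of the 22 (3.43 and 3.54) and mitochondrially encoded genes the lowest (-3.08).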

How the data were processed

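Total RNA of 18 libraries was sequenced single-end on a NovaSeq after a TruSeq preparation. The authors trimmed ends below Q20 and dropped reads under 35 bp with FastX (version 0.0.14), cleaned them further with ShortRead (version 1.44.3), aligned to GRCm38 with annotation of Ensembl release 82 and used featureCounts 1.5.3 for the deposited table of raw counts. Which aligner was run, and whether counting used strand, is not given in the sources used here. The authors' FPKM table, as deposited, holds counts after full quantile normalization with EDASeq, divided by library size and gene length, and served only as an alternative.

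Libraries were grouped by genotype and day. Raw counts were filtered with filterByExpr (13203 of 46603 genes kept), scaled by TMM and fitted in edgeR 4.0.16 (R 4.3.3) with the robust quasi-likelihood test, all 18 libraries in one model with a mean for each group. P-values are two-sided and Benjamini-Hochberg adjusted over all tested genes, with 0.05 as the threshold, and SE is the standard error of the log2 fold change. A gene with 1 to 3 counts on one day is given as a ratio of counts with an exact 95% interval, and one with 0 counts as a bound against 3 counts over the group.

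Gene lists and members were chosen with earlier results of these data known, and no set test was run. Named genes were the 15 steepest in each direction at 5 CPM or more without overlap, the 10 with the largest gain and loss of share, up to 4 called members per list and direction at 5 CPM or more, genes named in the study for this comparison, and genes whose promoter is shown. A few genes that meet this rule are not reported here, and Fos, Jun, Egr1, Psmb10, Reg1, Reg3d and Paox were added after their values were seen. Promoters are RefSeq windows of GRCm38.p6 for 9807 tested genes, matched by symbol. Gene positions come from GENCODE M21 where its start and end equal those in the count table (84.5% of matched IDs). Alternatives were DESeq2 1.42.0, library totals, no filter, the 6 WT libraries alone, the replicate number as a block, the FPKM table with limma 3.58.1 and leaving out each library. The edgeR fit was first tested on simulated counts with few changed genes, as many higher as lower. That setting lacks the broad shift between the 2 days, so it cannot judge the scaling.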

Additional observations from a re-analysis of the deposited data

Results flagged for a closer look

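The change from day 0 to day 1 differed between KO and WT in 2 of the named genes, by a test of that difference in the same edgeR fit. Hsph1, the HSP110 exchange factor, had a log2 fold change of 4.46 in WT and 2.67 in KO, a difference of -1.79 (SE 0.20, edgeR adjusted p = 9.56e-06). Its KO mean was 20.8 CPM at day 0 and 131 CPM at day 1, against 12.6 and 276 CPM in WT. Ncoa4, the receptor that delivers ferritin to autophagy and so frees stored iron, had a log2 fold change of 2.03 in WT and 0.76 in KO, a difference of -1.27 (SE 0.22, edgeR adjusted p = 0.00604). The WT libraries held 5.36, 5.44 and 7.34 CPM at day 0 and 25.9, 21.2 and 27.5 CPM at day 1, without overlap. Leaving out any of the 12 day 0 and day 1 libraries kept the Hsph1 difference past the threshold, between -1.93 and -1.67. The Ncoa4 difference did not pass without WT day 0 replicate 2 (-1.20, adjusted p = 0.0569) or under library totals (-1.02, adjusted p = 0.122).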

How the results depend on the processing

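The scaling moved these results most. Under library totals 8168 genes were higher and 943 lower, 2237 and 349 of them by at least 4-fold, and of 131 named genes 7 reversed, Cela1 (0.20), Ctrb1 (0.02), Bag1 (0.17), Fkbp4 (0.28), Rps2 (0.34), Reg1 (0.09) and Reg3d (0.92), while 4 kept their sign but not the test and 3 (Fos, Jun and Paox) passed that had not. At least 4-fold changes numbered 190 higher and 75 lower on log2(FPKM + 1), 545 and 385 on log2(FPKM + 0.1), 818 and 1248 without the filter on low counts, and 578 and 413 with the 6 WT libraries alone. With FPKM 7 named genes no longer passed (Hspa5, mt-Nd1, Sox9, Reg1, Cela1, Ctrb1 and 2210010C04Rik). DESeq2 gave 3546 genes higher and 4022 lower and kept the call of all 130 named genes that it gave a value. The cause of these shifts was not tested.

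Leaving out single libraries gave 3488 to 3655 genes higher and 3243 to 3352 lower, and 733 to 814 and 758 to 887 by at least 4-fold. Genes whose change differed between KO and WT ranged from 3 to 43 and so rested on single libraries. Of WT the count was 43, 3 and 26 without day 0 replicates 1, 2 and 3 and 6, 5 and 21 without those of day 1, and of KO it was 7 without day 0 replicate 2 and 29 and 6 without day 1 replicates 1 and 2. Same-numbered WT libraries of the 2 days did not deviate together (r = 0.047, 0.069 and -0.055 over 7653 genes), and the numbers were not read as pairs. Other values leave shared animals possible. Ddx3y was found in replicate 1 alone at both days. Between days 1 and 4 same-numbered libraries gave r = 0.17, 0.166 and 0.016, against -0.162 to 0.022 for different numbers. With a replicate block 3685 genes were higher and 3481 lower, 15 differed between genotypes, and all 131 named genes kept their call. Depth limits the genes with few counts, where 1 read moves a fold change.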
